A study of Homo sapiens with 3 samples.

Results

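The EGFR family of receptor tyrosine kinases and the ligands that bind it were followed in CAL27 cells and in 2 drug-resistant derivatives. CAL27 is an established human oral squamous cell carcinoma (OSCC) line. The genes were chosen by name: the receptors EGFR, ERBB2, ERBB3 and ERBB4 and the ligands AREG, EREG, TGFA, HBEGF, BTC and NRG1. These are 10 of the 19220 genes in the deposited count table, and all 10 passed the filter of a mean of 10 counts, as did 13676 genes in all. RNA-seq of total RNA was available as 1 library for each line. CAL27 cells were grown without drug. CAL27/5FU cells are resistant to 5-fluorouracil (5FU) and were kept in 10 μM 5FU, and CAL27/OXA cells are resistant to OXA and were kept in 10 μM OXA. The genotype of all 3 is labelled WT. CAL27/5FU was derived from CAL27 by raising the dose of 5FU stepwise. How CAL27/OXA was derived, and whether either line is 1 clone, is not given in the sources used here. Since both resistant lines grew in their drug and CAL27 did not, an effect of the drug in the medium and a stable difference of the line cannot be told apart.

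EGFR (ERBB1) and its relatives are receptors of the cell surface that pair when a ligand binds, phosphorylate each other and pass the signal on to the RAS-ERK and PI3K-AKT pathways. ERBB2 has no known soluble ligand and acts as a partner of the others, ERBB3 has little kinase activity of its own but binds PI3K, and ERBB4 is best known from heart and nerve. The ligands are made as precursors in the membrane and are released by proteases of the ADAM family. AREG and TGFA bind EGFR, whereas HBEGF, EREG and BTC bind EGFR and ERBB4, and NRG1 binds ERBB3 and ERBB4. In squamous carcinoma EGFR is commonly abundant, and antibodies to EGFR are used in treating head and neck cancer.

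The libraries held 37297713 to 43455488 counts. All 9 squamous epithelial markers examined were above the floor of 3 counts in each library, but their summed level was 15389 CPM (counts scaled to library size) in CAL27 cells, 3806 CPM in CAL27/5FU cells and 5223 CPM in CAL27/OXA cells. In CAL27 cells the 4 keratins carried most of this sum. KRT14, a basal keratin, had 58222, 948 and 8423 counts in CAL27, CAL27/5FU and CAL27/OXA cells. Other markers of the list were mixed. EPCAM had 9428, 12457 and 10990 counts, and CDH1 had 14800, 13459 and 15076. TP63 (23645, 9759 and 29498) and SFN (43529, 20652 and 52368) had fewer counts in CAL27/5FU cells but more in CAL27/OXA cells. The counts of single markers are not scaled, and the CAL27/OXA library was the largest. There 1 count was 0.0225 CPM, against 0.0257 CPM in CAL27 cells, so small differences in counts are not differences in level. DSP, with 32970, 14730 and 16589 counts, had fewer in both resistant lines. Of the 6 fibroblast markers, 4 to 6 were above the floor, with a summed level of 41.9 to 50.1 CPM. This sum hides differences between markers. COL1A1 had 1387, 1068 and 1050 counts, whereas LUM had 120, 414 and 877, COL1A2 had 90, 300 and 212 and PDGFRB had 35, 55 and 76. DCN (2, 6 and 8) and PDGFRA (0, 6 and 2) had few. Of the 5 leukocyte markers, 3 were above the floor (79.9 to 121.6 CPM, mainly CD68), and PTPRC, which defines leukocytes, had 2 counts in CAL27 cells and 0 in the others. CD68 had 3143, 1827 and 5055 counts, whereas CD14 had 637, 1290 and 341, the opposite order of lines. The 3 endothelial markers were all above the floor (2.57 to 9.27 CPM). CDH5 had 43, 338 and 163 counts, whereas PECAM1 had 13, 6 and 11 and VWF had 44, 19 and 29. The part of these differences in the results on the receptors and ligands was not tested. In bulk RNA, fewer cells that express a gene and less of its RNA per cell cannot be told apart.

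With 1 labelled library for each line used here, there was no replicate check and no test between lines was made. The tables hold 3 further columns each, whose names give them as second samples of the same lines. They match no sample label and were not used here. A log2 ratio is that of CPM after TMM scaling (which sets the libraries to a common level through most genes) with a prior count of 2. Its 95% interval is the exact Clopper-Pearson interval of the pair of counts. It covers counting error only and does not cover the spread between cultures. Since sequencing reads without molecular identifiers are not independent molecules, the interval may be too narrow even for counting error. A gene past 2-fold is called higher or lower. FPKM, which divides by gene length and by the library total, was used to compare levels between genes within a library and for alternative settings of the ratios.

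Of the 6 ligands, 2 were more than 2-fold higher in CAL27/5FU cells than in CAL27 cells, EREG and BTC, and 3 were so in CAL27/OXA cells, AREG, EREG and HBEGF. No receptor was more than 2-fold higher in either line, and ERBB3 was 2.80-fold lower in CAL27/OXA cells. Thus 2 of the 10 genes were called higher and 0 lower in CAL27/5FU cells, where 8.46% of all genes tested were higher and 6.72% lower. For 10 genes, these counts are near those shares. In CAL27/OXA cells 3 were higher and 1 was lower, where 6.54% of all genes tested were higher and 9.28% lower. The median log2 ratio of the ligands was 0.93 in CAL27/5FU cells and 1.26 in CAL27/OXA cells, and that of the receptors was -0.42 and -0.45. Over all genes tested, the medians were -0.0035 and 0.0055. The 2 comparisons share the CAL27 library. With scaling to total counts, in place of TMM, the median of all genes in CAL27/5FU cells moved up to 0.17 and AREG and HBEGF were then also past 2-fold, so that the count there was 4. The genes called over the whole table were then 1432 higher and 699 lower, against 1157 and 919 with TMM.

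**Figure D1:**
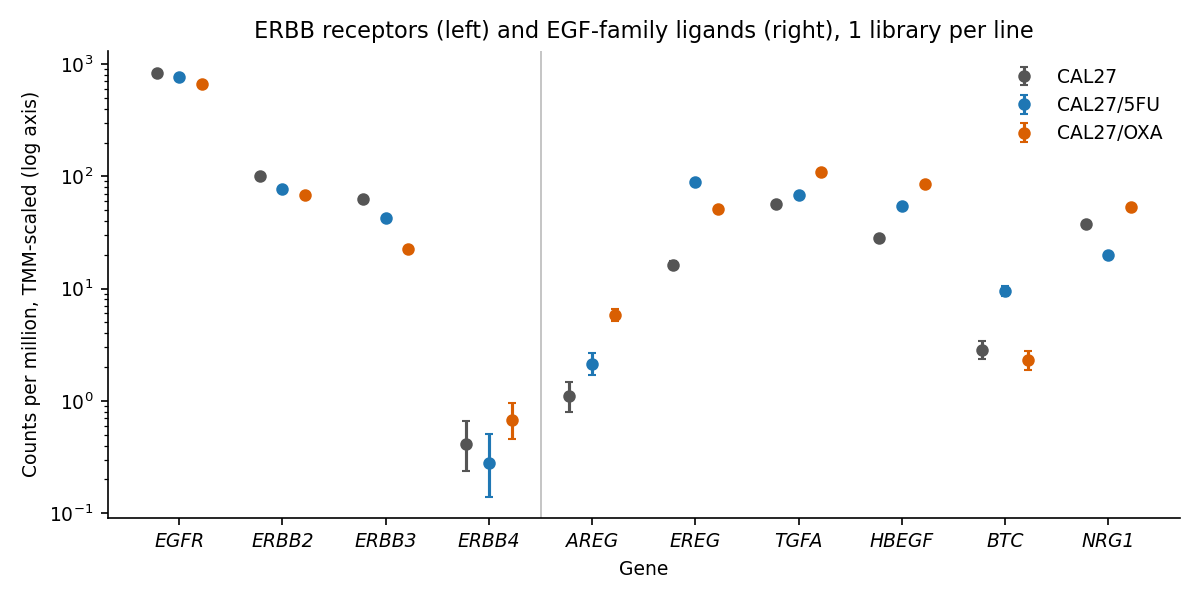
TMM-scaled CPM (log axis) of the 4 receptors (left) and 6 ligands (right) in the 1 library of CAL27, CAL27/5FU and CAL27/OXA cells, with 95% counting intervals as bars. EGFR lies highest at 661 to 841 CPM, ERBB4 lowest at 0.281 to 0.675 CPM, and the 3 lines are spread farther apart for EREG, BTC and AREG than for EGFR.

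The promoter sequences of the 4 ligands that were past 2-fold in a resistant line are given here so that the values can be read beside them. They are RefSeq windows (GRCh38.p14) of 250 bases before to 50 bases after the start site, read 5′ to 3′ along the gene. EREG is at chr4:74364895-74365194 and AREG at chr4:74444886-74445185 on the plus strand. BTC is at chr4:74794474-74794773 and HBEGF at chr5:140346554-140346853 on the minus strand. Capitals mark matches to 3 motifs on either strand: the cAMP response element (CRE) TGACGTCA, the TATA box TATAAA and the SP1 site GGGCGG with its complement CCGCCC.
EREG: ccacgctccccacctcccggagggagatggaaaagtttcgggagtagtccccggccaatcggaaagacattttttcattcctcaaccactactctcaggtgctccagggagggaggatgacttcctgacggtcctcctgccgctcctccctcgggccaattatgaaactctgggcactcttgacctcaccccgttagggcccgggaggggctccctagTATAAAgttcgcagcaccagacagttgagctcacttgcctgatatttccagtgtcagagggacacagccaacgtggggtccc
AREG: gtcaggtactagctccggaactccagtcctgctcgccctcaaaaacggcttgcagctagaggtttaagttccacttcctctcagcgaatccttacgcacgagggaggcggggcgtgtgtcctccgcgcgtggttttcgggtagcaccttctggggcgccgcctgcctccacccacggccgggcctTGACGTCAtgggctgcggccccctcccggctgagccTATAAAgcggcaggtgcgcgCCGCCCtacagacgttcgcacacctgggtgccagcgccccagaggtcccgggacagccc
BTC: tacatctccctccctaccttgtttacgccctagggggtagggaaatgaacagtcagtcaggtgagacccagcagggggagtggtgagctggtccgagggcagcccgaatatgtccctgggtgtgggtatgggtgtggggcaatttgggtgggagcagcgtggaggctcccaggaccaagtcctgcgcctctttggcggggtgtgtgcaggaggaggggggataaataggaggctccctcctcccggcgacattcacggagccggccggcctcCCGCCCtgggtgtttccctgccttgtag
HBEGF: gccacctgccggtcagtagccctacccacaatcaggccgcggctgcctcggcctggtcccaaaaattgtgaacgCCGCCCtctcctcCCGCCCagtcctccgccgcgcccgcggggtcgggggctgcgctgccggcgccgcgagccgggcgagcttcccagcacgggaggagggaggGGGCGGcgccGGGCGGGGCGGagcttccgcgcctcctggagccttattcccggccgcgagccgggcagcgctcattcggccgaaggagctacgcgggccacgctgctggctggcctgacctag

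The windows of these ligands differed in what they held. Positions give the first base of a match, with the start site as 1 and the base before it as -1. AREG had a CRE at -65, a TATA box at -29 and an SP1 match at -9. EREG, its neighbour on the chromosome, had a TATA box at -32 and no match to the CRE or SP1 letters. HBEGF had 5 SP1 matches, at -176, -163, -73, -63 and -58, of which the last pair overlap by 1 base, and BTC had 1, at 23. The CRE was found in 1.85% of the 35116 human promoter windows of this length, the TATA box in 11.5% and the SP1 site in 45.0%. Of the 4 windows, 0 held the AP-1 letters TGANTCA (7.71% of all windows) or the TCF/LEF letters CTTTGAT (2.62%). Windows of genes within 2-fold of CAL27 held matches too. An EGFR window had AP-1 letters at -232 and -136 and a TATA box at -146 and at -36. ERBB2 had AP-1 letters at -222, and a TGFA window had SP1 matches at -204, -131, -73 and 45. The motifs were chosen after the AREG window had been seen, and a match describes letters only. GC content was 57.7% for EREG, 66.3% for AREG, 63% for BTC and 75% for HBEGF, with a median of 58.7% over all windows. The table gave a window for 8 of the 10 genes, and none was matched for ERBB3 and NRG1.

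EGFR (chromosome 7, 55019021 to 55211628, plus strand of GRCh38) was by far the most abundant of the 10 genes. It had 32753 counts in CAL27 cells, 30287 in CAL27/5FU cells and 29347 in CAL27/OXA cells, which are 841, 774 and 661 CPM. CAL27 cells were thus highest and CAL27/OXA cells lowest, and the counting intervals of the 3 libraries did not overlap. The log2 ratio was -0.12 (interval -0.14 to -0.10) in CAL27/5FU cells and -0.35 (-0.37 to -0.33) in CAL27/OXA cells, both within 2-fold. The sign in CAL27/5FU cells depends on the scaling: with total counts the ratio was 0.05. Per length, EGFR reached 182, 188 and 157 FPKM, which placed it at the 98.3, 98.4 and 97.9 percentile of all genes. This was 8.35 to 9.87 times the FPKM of ERBB2, the next receptor.

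ERBB2 (HER2; chromosome 17, 39687914 to 39730426, plus strand), the partner without a ligand, had 3898, 3047 and 3038 counts in CAL27, CAL27/5FU and CAL27/OXA cells, or 100.1, 77.8 and 68.4 CPM. CAL27 cells were again highest. The log2 ratios were -0.36 (-0.43 to -0.29) and -0.55 (-0.62 to -0.48), short of 2-fold. ERBB2 overlaps MIEN1 and PGAP3 on the other strand, and since the strandedness of the counts is not given, reads in the overlap cannot be assigned with certainty. ERBB3 (chromosome 12, 56076799 to 56103505, plus strand), the receptor of NRG1, had 2447, 1652 and 996 counts, or 62.8, 42.2 and 22.4 CPM, highest in CAL27 cells and lowest in CAL27/OXA cells. Its log2 ratio was -0.57 (-0.66 to -0.48) in CAL27/5FU cells and -1.48 (-1.59 to -1.38) in CAL27/OXA cells. The latter was the only receptor ratio against CAL27 past 2-fold, with its whole interval.

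ERBB4 (chromosome 2, 211375717 to 212538841, minus strand), the other receptor of NRG1, was near the limit of detection with 16, 11 and 30 counts. The floor of 3 counts corresponds to 0.0675 to 0.0770 CPM, and ERBB4 lay at 0.411, 0.281 and 0.675 CPM. Its log2 ratios of -0.48 (-1.80 to 0.65) and 0.66 (-0.20 to 1.69) had intervals that include 0, so a difference from CAL27 was not detectable at this depth. Summed over the 4 receptors, the level was 1004 CPM in CAL27 cells, 894 CPM in CAL27/5FU cells and 752 CPM in CAL27/OXA cells.

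EREG (epiregulin; chromosome 4, 74365143 to 74388751, plus strand), whose window with 1 TATA box is given above, had the largest log2 ratio of the 10 genes against CAL27. It had 635 counts in CAL27 cells, 3518 in CAL27/5FU cells and 2273 in CAL27/OXA cells, or 16.3, 89.9 and 51.2 CPM. Both resistant lines were high, CAL27/5FU more so. The log2 ratio was 2.46 (2.34 to 2.59; 5.50-fold) in CAL27/5FU cells and 1.65 (1.52 to 1.78; 3.13-fold) in CAL27/OXA cells. Ranked by rise in CAL27/5FU cells, EREG was number 242 of the 13676 genes.

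AREG (amphiregulin; chromosome 4, 74445134 to 74455009, plus strand), with the CRE in its window, was low in CAL27 cells at 43 counts and had 84 counts in CAL27/5FU cells and 259 in CAL27/OXA cells. These are 1.10, 2.15 and 5.83 CPM, so that the order of the resistant lines was the opposite of that for EREG. The log2 ratio in CAL27/OXA cells was 2.35 (1.93 to 2.90; 5.10-fold), which ranked AREG number 224 of all genes there. In CAL27/5FU cells it was 0.93 (0.41 to 1.52), just within 2-fold, and the interval spans the threshold.

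HBEGF (chromosome 5, 140332843 to 140346631, minus strand), a heparin-binding ligand of EGFR and ERBB4, had 1101, 2124 and 3811 counts in CAL27, CAL27/5FU and CAL27/OXA cells, or 28.3, 54.3 and 85.8 CPM. It was higher in both resistant lines, with CAL27/OXA above CAL27/5FU. Its log2 ratio was 0.94 (0.84 to 1.05; 1.92-fold) in CAL27/5FU cells, within 2-fold, and 1.60 (1.50 to 1.70; 3.03-fold) in CAL27/OXA cells. TGFA (chromosome 2, 70447280 to 70554193, minus strand), the transforming growth factor that binds EGFR, had 2225, 2644 and 4811 counts, or 57.1, 67.6 and 108 CPM. It took the same order of lines as HBEGF. The log2 ratios of 0.24 (0.16 to 0.32) and 0.92 (0.85 to 1.00) were both within 2-fold.

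BTC (betacellulin; chromosome 4, 74744759 to 74794686, minus strand) was higher in CAL27/5FU cells than in both other lines. It had 111 counts in CAL27 cells, 374 in CAL27/5FU cells and 102 in CAL27/OXA cells, or 2.85, 9.56 and 2.30 CPM. The log2 ratio was 1.73 (1.44 to 2.06; 3.31-fold) in CAL27/5FU cells and -0.31 (-0.71 to 0.09) in CAL27/OXA cells, where the interval includes 0.

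NRG1 (neuregulin 1; chromosome 8, 31639386 to 32767959, plus strand), the ligand of ERBB3 and ERBB4, was the only one of the 6 ligands with a ratio below 0 in CAL27/5FU cells. It had 1471 counts in CAL27 cells, 773 in CAL27/5FU cells and 2353 in CAL27/OXA cells, or 37.8, 19.7 and 53.0 CPM. CAL27 cells lay between the resistant lines. The log2 ratio was -0.93 (-1.06 to -0.81; 1.91-fold lower) in CAL27/5FU cells and 0.49 (0.39 to 0.58; 1.40-fold higher) in CAL27/OXA cells, and neither was past 2-fold. ERBB3, its receptor, was below CAL27 in both lines.

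**Figure D2:**
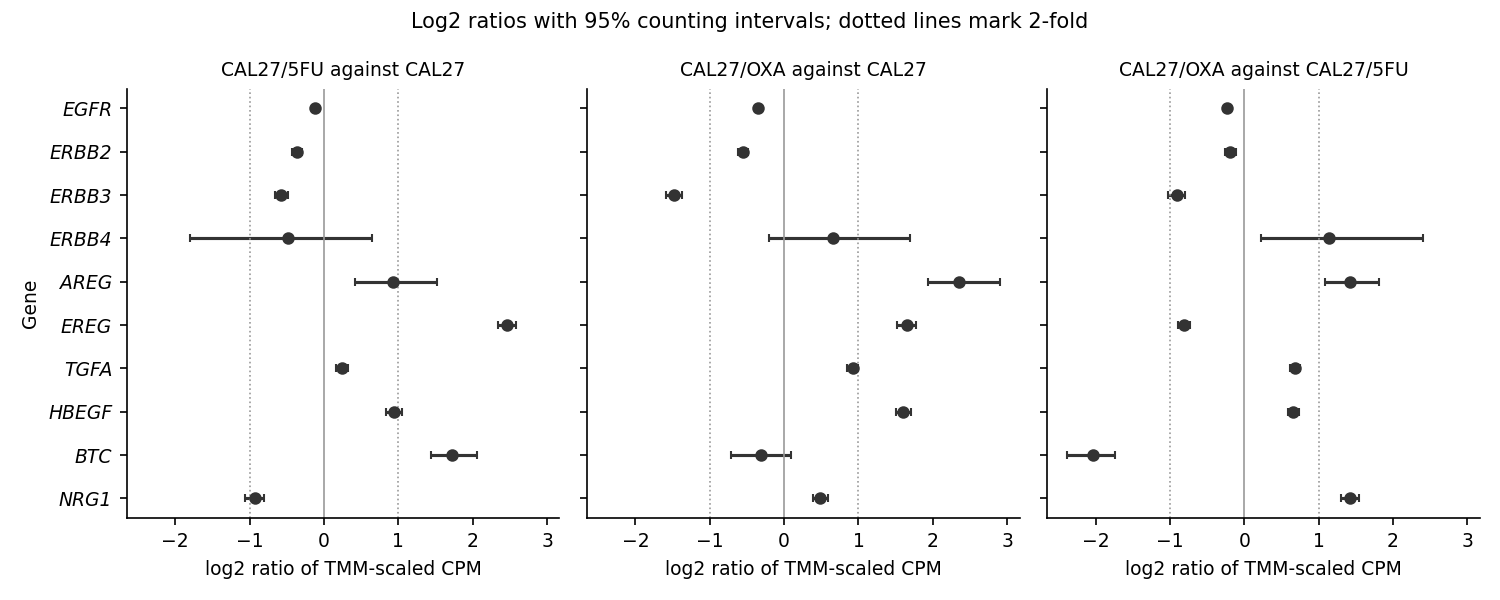
Log2 ratios of TMM-scaled CPM of the 10 genes (rows) for the 3 pairs of lines, with 95% counting intervals as bars and dotted lines at 2-fold. Most ligands lie to the right of 0 and most receptors to the left in both resistant lines, with NRG1 in CAL27/5FU (-0.93) and BTC in CAL27/OXA (-0.31) as the ligands on the left.

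The ligand pool was larger in both resistant lines and its makeup differed between them. The 6 ligands together had 5586 counts in CAL27 cells, 9517 in CAL27/5FU cells and 13609 in CAL27/OXA cells. This is a summed level of 143 CPM (interval 140 to 147), 243 CPM (238 to 248) and 306 CPM (301 to 312), or 1.70-fold and 2.14-fold that of CAL27. The dual ligands of EGFR and ERBB4 (HBEGF, EREG and BTC) made up much of this, with 47.4, 153.7 and 139.3 CPM. AREG and TGFA, which bind EGFR alone, summed to 58.2, 69.7 and 114 CPM. Without NRG1, the summed ligands of EGFR were at 105.6, 223 and 253 CPM.

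Per length, TGFA held the largest share of the ligands in CAL27 cells, with 33.3% of the summed FPKM, and HBEGF held 30.6%. The intervals of these 2 levels overlapped. In CAL27/5FU cells HBEGF led with 34.1%, and EREG held 28.8%, against 9.01% in CAL27 cells. In CAL27/OXA cells HBEGF led with 40.6% and TGFA followed with 27.5%. NRG1 made up 22.2% in CAL27 cells, 6.73% in CAL27/5FU cells and 13.6% in CAL27/OXA cells. AREG remained the smaller part, at 2.21%, 2.49% and 5.09%, for all that its ratio was the largest in CAL27/OXA cells. Among the receptors EGFR held 82.3%, 85.4% and 87.1% of the summed FPKM, and ERBB3 held 7.78%, 5.90% and 3.74%.

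EGFR exceeded the summed FPKM of the 6 ligands 4.99 times in CAL27 cells, 2.66 times in CAL27/5FU cells and 1.71 times in CAL27/OXA cells. Against the most abundant ligand alone it stood 15.0 times higher in CAL27 cells (TGFA), 7.80 times in CAL27/5FU cells (HBEGF) and 4.21 times in CAL27/OXA cells (HBEGF). By FPKM the order in CAL27 cells was EGFR, ERBB2, ERBB3, TGFA, HBEGF, NRG1, EREG, BTC, AREG and ERBB4, where TGFA and HBEGF, and BTC and AREG, did not differ beyond their intervals. In CAL27/5FU cells HBEGF, at 24.1 FPKM, and EREG, at 20.4 FPKM, came right after EGFR, and EREG did not differ from ERBB2 (19.1 FPKM) beyond its interval. In CAL27/OXA cells HBEGF (37.2 FPKM) and TGFA (25.2 FPKM) came after EGFR, and ERBB3 (6.73 FPKM) lay below NRG1 and EREG. No neighbours in that order overlapped.

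**Figure D3:**
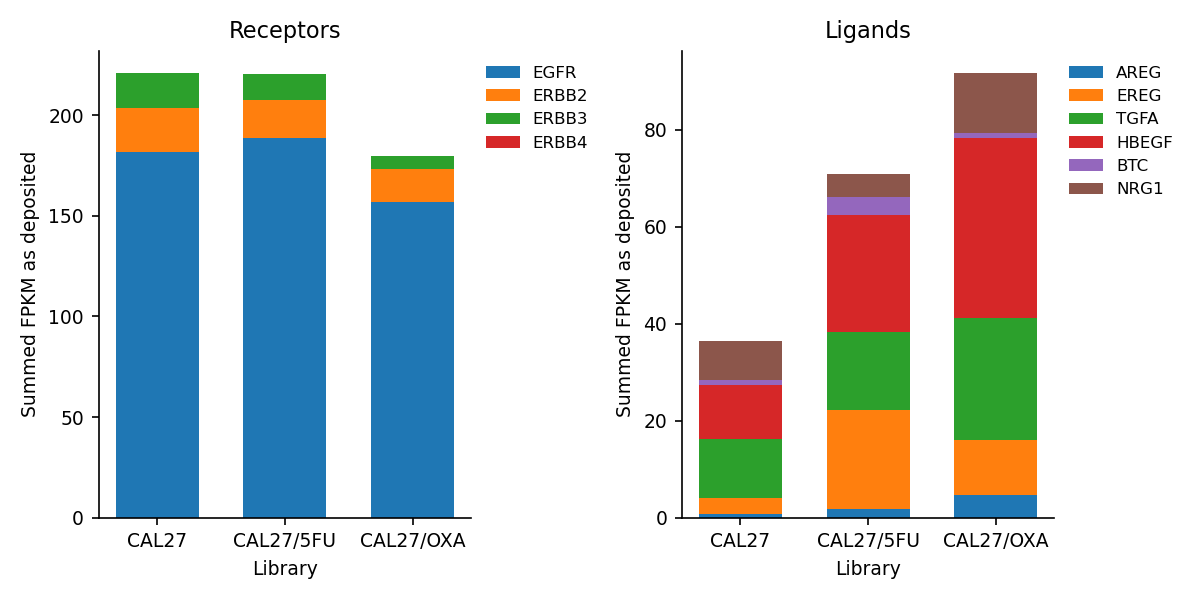
Deposited FPKM stacked by gene for the 4 receptors (left) and the 6 ligands (right), 1 bar for each library. The receptor bars stand at 221, 221 and 180 FPKM and are mostly EGFR, while the ligand bars stand at 36.5, 70.8 and 91.7 FPKM, with a wide EREG band in CAL27/5FU cells and wide HBEGF and TGFA bands in CAL27/OXA cells.

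The resistant lines were also set against each other. Of the 10 genes, ERBB4, AREG and NRG1 were more than 2-fold higher in CAL27/OXA than in CAL27/5FU cells, and BTC was 4.10-fold lower. Over all genes tested, 4.18% were higher and 8.38% lower. AREG and NRG1 had the same log2 ratio of 1.42, with intervals of 1.08 to 1.81 and 1.31 to 1.54. BTC had -2.03 (-2.39 to -1.74). The call of ERBB4 rests on 11 and 30 counts, its ratio of 1.13 has an interval of 0.23 to 2.41, and it was lost with a prior count of 5. ERBB3 was at -0.91 (-1.03 to -0.80) and EREG at -0.81 (-0.89 to -0.74), both within 2-fold.

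**Figure D4:**
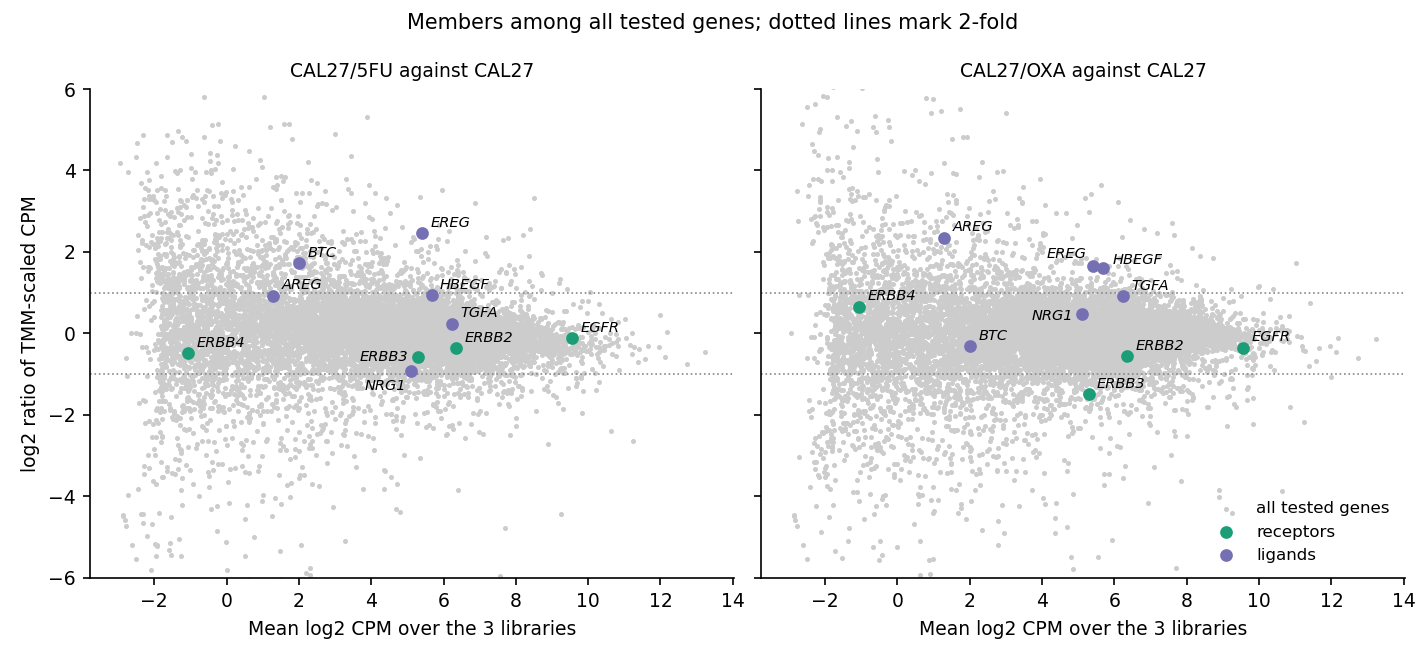
Log2 ratio of each tested gene (grey) against its mean log2 CPM over the 3 libraries, for CAL27/5FU (left) and CAL27/OXA (right) against CAL27, with receptors in green, ligands in violet and dotted lines at 2-fold. On the left EREG (2.46) and BTC (1.73) lie above the upper line, on the right AREG, EREG and HBEGF lie above it and ERBB3 (-1.48) below the lower one, and 52 of the 13676 genes lie outside the axis in 1 panel or both.

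EREG, AREG and BTC lie in 1 cluster on chromosome 4 together with EPGN, another ligand of EGFR. The start of EPGN is 56.7 kb from that of EREG, the start of AREG lies 80.0 kb from that of EREG, and BTC starts 350 kb from AREG. EREG, AREG and BTC did not share 1 pattern: EREG was past 2-fold in both lines, AREG in CAL27/OXA and BTC in CAL27/5FU cells. EPGN, with 13, 7 and 11 counts, was at -0.75 (-2.47 to 0.53) and -0.37 (-1.73 to 0.84), and both intervals include 0. Around EREG, the median log2 ratio of the 10 tested genes closest by was 0.76 in CAL27/5FU cells and -0.03 in CAL27/OXA cells. In CAL27/5FU cells 3 of these were called higher (CXCL3, BTC and PARM1), and in CAL27/OXA cells 2 were higher (AREG and CXCL2) and 1 lower (CXCL1). Over all genes tested, 8.46% were higher in CAL27/5FU cells, and 6.54% were higher and 9.28% lower in CAL27/OXA cells. CXCL1, CXCL2 and CXCL3 encode chemokines that attract neutrophils. PARM1, which starts 138 kb from BTC, had 67, 447 and 71 counts, and its log2 ratios of 2.70 and -0.10 had the same order of libraries as BTC. The chemokines and PARM1 are named after their values were seen. The neighbours of EGFR had medians of 0.06 and 0.02, those of ERBB3 -0.37 and -0.13, and those of HBEGF -0.09 and 0.24. Those of NRG1 had medians of 0.23 and 0.24, and 0 of the 10 were past 2-fold.

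Genes of the same pathway were then examined as 5 lists. Of the other EGF-family ligands, 4 of 5 were tested, and 2 were called higher in CAL27/5FU and 0 in CAL27/OXA cells, where 8.46% and 6.54% of all genes tested were higher. EGF itself had 80, 224 and 104 counts and log2 ratios of 1.46 and 0.18. NRG2, the other one called, had 23, 51 and 34 counts (1.08 and 0.35), and its call was lost with a prior count of 5 and with the whole interval (0.41 to 1.92). With a mean of 50 counts, or FPKM and a pseudocount of 0.1, 1 gene of the list was called. With FPKM and a pseudocount of 1, 0 were called, so EGF was lost too. With FPKM averaging 1 or more, only 1 gene was tested and 0 were called. NRG3 had 0, 2 and 0 counts and was not tested. The list of 10 ligand-releasing proteases and their regulators had medians of 0.03 and -0.37, with 2 higher and 0 lower in CAL27/5FU cells and 1 higher and 2 lower in CAL27/OXA cells. These counts are near the shares over all genes, which were 8.46% higher and 6.72% lower, and 6.54% higher and 9.28% lower. ADAM8 was high in both lines (1261, 3583 and 5181 counts, log2 ratios of 1.50 and 1.85), and ADAM19 in CAL27/5FU cells (32, 98 and 59 counts, 1.55 and 0.66). ADAM17, the main protease that releases AREG, TGFA, HBEGF and EREG, had 6175, 5216 and 2871 counts, which gave -0.25 in CAL27/5FU and -1.29 in CAL27/OXA cells. RHBDL2, a rhomboid protease, was the other one called lower in CAL27/OXA cells (450, 275 and 243 counts, -0.71 and -1.07). Its interval there of -1.31 to -0.85 spans the threshold. With total counts, with FPKM and with the whole interval, 1 of the 2 lower calls was lost.

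Of the 24 adaptors and effectors between receptor and ERK or AKT, 0 were past 2-fold in either line, and the medians were -0.10 and -0.11. Over all genes tested, 8.46% were higher and 6.72% lower in CAL27/5FU cells, and 6.54% and 9.28% in CAL27/OXA cells. The extremes were PIK3CB at -0.81 and AKT1 at 0.55 in CAL27/5FU cells, and PIK3CB at -0.90 and PIK3R1 at 0.41 in CAL27/OXA cells. Of the 14 inhibitors of the receptors, 0 were past 2-fold against CAL27, with medians of 0.13 and -0.07. ERRFI1, which binds and blocks the EGFR kinase, had 4584, 5185 and 2630 counts and ratios of 0.17 and -0.99. Between the resistant lines, ERRFI1 (-1.16) and PTPRJ (-1.31), a receptor phosphatase, were called lower in CAL27/OXA cells. In that comparison 4.18% of all genes tested were higher and 8.38% lower. PTPRJ had 149 counts in CAL27/5FU and 67 in CAL27/OXA cells, and its interval of -1.77 to -0.91 spans the threshold. The count of 2 fell to 1 with the whole interval and with FPKM (pseudocount 1, or averaging 1 or more).

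The list of 20 feedback and target genes of ERK stood downstream of the lists above. In CAL27/5FU cells 13 were higher and 1 was lower, with a median of 1.24, and in CAL27/OXA cells 15 were higher and 1 was lower, with a median of 1.73. The shares over all genes tested were 8.46% and 6.72% in CAL27/5FU cells and 6.54% and 9.28% in CAL27/OXA cells. Since the list was chosen with earlier results of these data known, its counts beside these shares are a description and not a test. In each line 17 of the 20 had a ratio above 0. DUSP4, a phosphatase of ERK, had 189, 1345 and 1150 counts (log2 ratios of 2.81 and 2.40). SPRY4, a Sprouty inhibitor of receptor signalling, had 64, 205 and 449 counts (1.64 and 2.59). ETV5, an ETS transcription factor, had 216, 1146 and 1342 counts (2.39 and 2.44).

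FOSL1, a subunit of the transcription factor AP-1, had 2805, 8377 and 21063 counts (1.57 and 2.72), and PHLDA1 had 1827, 4438 and 12286 counts (1.27 and 2.56). EPHA4, an ephrin receptor, had only 2 counts in CAL27 cells against 26 and 148, and its log2 ratios without a prior count were 3.69 (1.70 to 6.81) and 6.02 (4.14 to 9.08). The gene called lower in both lines was FOS, another AP-1 subunit, with 603, 294 and 301 counts (-1.04 and -1.19). Its interval in CAL27/5FU cells was -1.25 to -0.84, and the call there was lost with total counts, with the upper quartile, with FPKM and with the whole interval. In CAL27/OXA cells it was lost with FPKM and a pseudocount of 1 and with the whole interval (-1.40 to -0.99). MYC was at -0.46 and -0.24 and SPRY1 at -0.07 and -0.66, within 2-fold. Many of these genes answer to other pathways too, CCND1 and MYC among them being known targets of β-catenin, and ERK activity itself was not measured in these files. Between the resistant lines, EPHA4, PHLDA1 and FOSL1 were more than 2-fold higher in CAL27/OXA cells and 0 of the 20 were lower. The shares over all genes tested in that comparison were 4.18% higher and 8.38% lower.

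**Figure D5:**
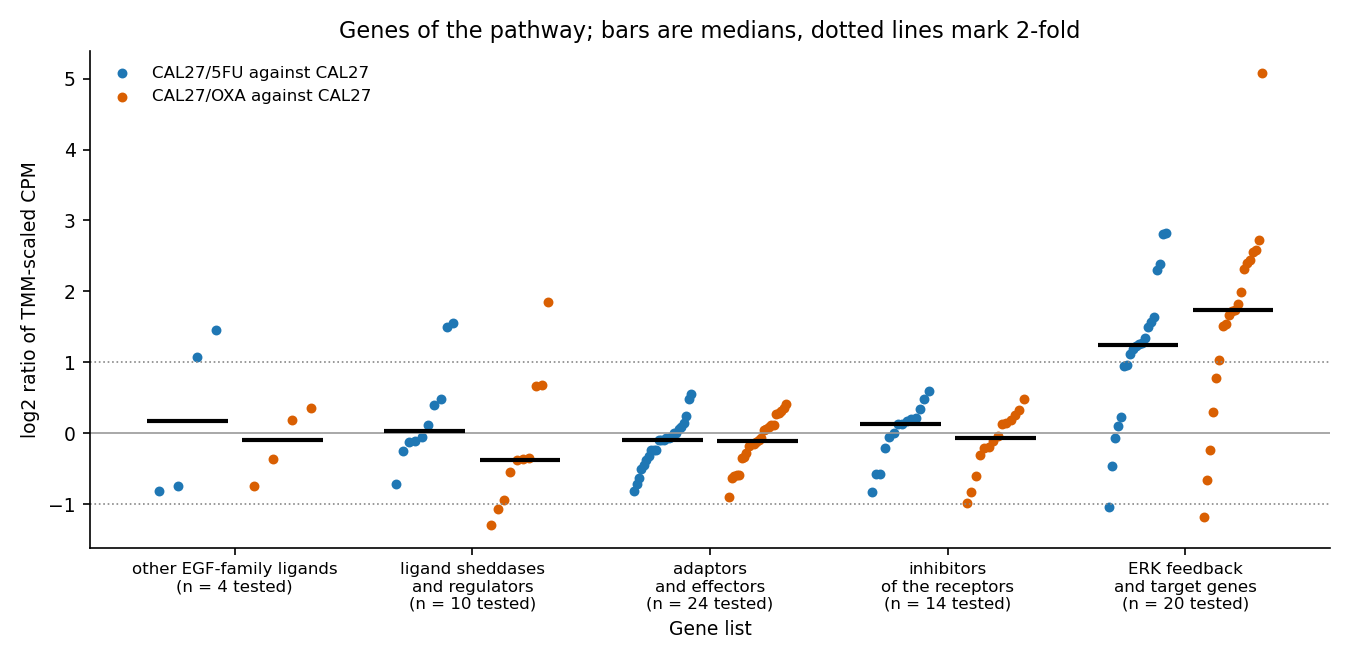
Log2 ratios of TMM-scaled CPM against CAL27 for the tested genes of the 5 pathway lists, 1 point for each gene, with the median as a bar and dotted lines at 2-fold. The ERK feedback and target genes lie mostly above 0 (medians 1.24 and 1.73), and the adaptors and effectors all lie between the dotted lines.

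Finally, genes whose pattern over the 3 libraries was closest to that of EREG, the gene farthest from 0, were sought where the counts averaged 100 or more. Likeness was the Euclidean distance of the 2 log2 ratios against CAL27. The nearest was NRP1, a co-receptor of semaphorins and VEGF, at a distance of 0.11 with 290, 1498 and 1051 counts. SOCS2, an inhibitor of cytokine signalling, followed at 0.22 (113, 550 and 433 counts), and VGLL2 at 0.23 (70, 462 and 249 counts). The likeness rests on 3 libraries, and the 2 ratios share CAL27.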

How the data were processed

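The analysis used RNA-seq of CAL27, CAL27/5FU and CAL27/OXA cells, 1 library of each (3 in all). Total RNA was extracted with TRIzol, libraries were built with the NEBNext Ultra kit, and sequencing was done by Novogene. The submitters' processing notes name CASAVA 1.8, HISAT2 2.0.5 and GRCh38/hg38. The counting tool, the annotation and the strandedness are not given in the sources used here. The authors deposited read counts per gene symbol without normalization, and FPKM values. For 100% of the 14367 genes with counts in each library, both tables gave 1 gene length within 0.1%, so the deposited FPKM values are scaled by total counts. A further 3 columns of per-sample values in each table are named as second samples of the 3 lines, but match no sample label and were left out.

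Counts were scaled by TMM (edgeR 4.0.16, R 4.3.3; factors 0.932, 1.05 and 1.02), and log2 CPM took a prior count of 2. Genes averaging 10 counts or more entered, and past 2-fold was the call. The depth makes 1 count 0.0225 to 0.0257 CPM. Intervals are exact (95%, Clopper-Pearson for pairs, Poisson for levels), and scripts were tested on simulated data. No p-value was computed. The gene lists and members were chosen with earlier results of these data known. The rule for names took all 10 members, up to 6 genes past 2-fold of each list (mean of at least 50 counts, largest ratio first), the 5 nearest tested genes on each side by median and count, and the 3 genes closest to the member farthest from 0; other names were chosen after their values were seen. Positions are from GENCODE 29 (GRCh38), and promoters from RefSeq (GRCh38.p14). Alternatives were DESeq2 1.42.0 size factors, total counts, upper quartile, no filter beyond 1 count, a mean of 50 counts, prior counts of 0.5 and 5, FPKM (pseudocounts 1 and 0.1, or only genes averaging 1 or more), and the whole interval past 2-fold.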

Additional observations from a re-analysis of the deposited data

Results flagged for a closer look

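NRG1 lay on opposite sides of CAL27 in the resistant lines, with log2 ratios of -0.93 in CAL27/5FU and 0.49 in CAL27/OXA cells, which differ by 1.42. With 1 labelled library for each line used here, the difference was not tested.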

How the results depend on the processing

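Of the 294 ratios of the 10 genes under the alternatives, 0 reversed a call, while 63 were labelled as moved and 231 as the same. For 4 of the 30 ratios, a call was gained or lost under some alternative. The 1 ratio that changed sign was EGFR in CAL27/5FU cells (with total counts and with FPKM). The count of the 10 genes past 2-fold in CAL27/5FU cells was 2, and 4 with total counts, with FPKM and a pseudocount of 0.1 and with FPKM averaging 1 or more, where AREG and HBEGF were added, and 3 with FPKM and a pseudocount of 1, where HBEGF was added. In CAL27/OXA cells it was 4 to 5 (TGFA added under the same 3 settings), and between the resistant lines 3 to 4 (ERBB4 lost). For the ERK genes the count was 11 to 15 in CAL27/5FU and 12 to 16 in CAL27/OXA cells, for the proteases 1 to 2 and 2 to 3, and for the other EGF-family ligands 0 to 3 and 0. Over all genes, those higher and lower in CAL27/5FU cells numbered 1157 and 919, against 503 and 311 with FPKM and a pseudocount of 1, and 1899 and 1555 without the filter. In CAL27/OXA cells they were 894 and 1269, against 368 and 481, and 1348 and 1925. Between the resistant lines they were 571 and 1146, against 165 and 437, and 981 and 1861. A mean of 50 counts left 760, 608 and 369 higher and 655, 951 and 794 lower. No paired analysis was possible because 1 labelled library was used for each line, and for the same reason no library could be left out. The depth limits ERBB4 most, and the spread between cultures is unknown for each gene.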
